A study of Mus musculus with 18 samples.

Results

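Of the 18 samples of the series, 6 were unstimulated controls (NC), and they fell into a set of 4 (NC-1 to NC-4) and a set of 2 (NC-5 and NC-6). The sets were chosen from the correlations of these same samples over all genes, so every difference between them is given here as a description, with the value in each sample and no test. The 10923 of 25926 genes in the table that averaged 1 FPKM or more in NC were compared, of which 6122 (56.0%) did not overlap between the sets. The average was taken over all 6 samples, so a gene could pass through the set where it is high. FPKM stands for fragments scaled to gene length and to the number of mapped fragments of a library. A difference is the mean of log2(FPKM + 1) over NC-1 to NC-4 minus the mean over NC-5 and NC-6. A gene is called split where no sample of one set reached the range of the other set and the difference was at least 2-fold.

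The study asked how macrophages respond to renal tubular epithelial cells (TECs) that meet calcium oxalate monohydrate (COM) crystals, the mineral of most kidney stones. All samples were bone marrow-derived macrophages (BMDMs) of C57BL/6 mice, grown for 7 days with 50 ng/mL of the growth factor M-CSF and kept above TECs in Transwell chambers with 0.4 µm pores. The 6 NC samples received PBS and had no crystals and no Met. In the 6 COM samples the TECs were given 100 µg/mL COM for 24 h, and in the 6 COM+Met samples the BMDMs were given 5 mM Met as well, an abbreviation that the labels leave unexplained. The labels name a strain but no sex, age, batch or date, and do not say which samples came from separate cultures or animals, so p-values below measure only the spread between these samples. Nothing in the labels tells NC-1 to NC-4 from NC-5 and NC-6.

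M-CSF both drives marrow precursors to divide and turns them into macrophages. When receptors such as the Toll-like receptors are engaged, macrophages switch on NF-kappa B, which raises chemokines that attract neutrophils and cytokines such as interleukin-1 beta, and they make interferon, which raises antiviral genes through STAT and IRF factors. Activated macrophages usually divide less. MHC class II molecules, which show peptides to T cells, are raised by the master regulator CIITA.

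The promoters of 7 genes described below are shown first, so that motifs of NF-kappa B, interferon and cell cycle factors can be looked for in them. Each is the 250 bases before the RefSeq start site in GRCm38.p6, read 5′ to 3′ along the gene. Capitals mark matches on either strand to the NF-kappa B consensus, to the interferon-stimulated response element core (GAAANNGAAA), to the cell cycle element CHR (TTTGAA) and to the CCAAT box. In all RefSeq promoters, taken as 250 bases before to 50 after the start, these motifs were found in 8.46%, 3.44%, 17.9% and 37.4% of 32851.
Cxcl2 (chr5:90903649-90903898, plus strand): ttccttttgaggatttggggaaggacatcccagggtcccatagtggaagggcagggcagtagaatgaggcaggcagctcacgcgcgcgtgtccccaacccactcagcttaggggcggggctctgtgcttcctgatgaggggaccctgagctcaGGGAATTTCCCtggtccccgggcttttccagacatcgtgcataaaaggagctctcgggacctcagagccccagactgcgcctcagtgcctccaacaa
Cxcl3 (chr5:90785851-90786100, plus strand): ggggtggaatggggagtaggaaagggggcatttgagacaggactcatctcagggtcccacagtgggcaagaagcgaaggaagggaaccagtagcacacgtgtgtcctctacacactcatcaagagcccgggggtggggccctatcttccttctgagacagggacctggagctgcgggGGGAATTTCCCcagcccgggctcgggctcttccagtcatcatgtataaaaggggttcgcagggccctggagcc
Il1b (chr2:129371140-129371389, minus strand): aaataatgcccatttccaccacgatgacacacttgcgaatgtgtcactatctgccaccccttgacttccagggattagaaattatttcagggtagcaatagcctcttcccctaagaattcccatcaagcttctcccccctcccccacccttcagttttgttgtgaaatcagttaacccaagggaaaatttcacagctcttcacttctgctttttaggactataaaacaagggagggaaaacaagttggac
Ifit1 (chr19:34640639-34640888, plus strand): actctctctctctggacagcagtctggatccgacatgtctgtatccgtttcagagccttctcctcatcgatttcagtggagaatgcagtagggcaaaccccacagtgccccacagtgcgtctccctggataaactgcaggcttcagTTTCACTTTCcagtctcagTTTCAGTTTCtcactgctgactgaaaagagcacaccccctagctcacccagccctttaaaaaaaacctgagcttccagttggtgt
Bub1 (chr2:127831860-127832109, minus strand): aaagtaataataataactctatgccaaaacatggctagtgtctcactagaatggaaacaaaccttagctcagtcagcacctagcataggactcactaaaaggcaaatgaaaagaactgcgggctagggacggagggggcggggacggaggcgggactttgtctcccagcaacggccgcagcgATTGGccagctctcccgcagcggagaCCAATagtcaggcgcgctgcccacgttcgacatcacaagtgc
Chil3 (chr3:106167565-106167814, minus strand): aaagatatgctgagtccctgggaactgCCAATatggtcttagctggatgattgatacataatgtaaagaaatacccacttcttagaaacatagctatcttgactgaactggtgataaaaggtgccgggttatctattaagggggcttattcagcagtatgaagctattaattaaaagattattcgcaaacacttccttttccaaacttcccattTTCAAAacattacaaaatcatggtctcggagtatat
Chil4 (chr3:106219480-106219729, minus strand): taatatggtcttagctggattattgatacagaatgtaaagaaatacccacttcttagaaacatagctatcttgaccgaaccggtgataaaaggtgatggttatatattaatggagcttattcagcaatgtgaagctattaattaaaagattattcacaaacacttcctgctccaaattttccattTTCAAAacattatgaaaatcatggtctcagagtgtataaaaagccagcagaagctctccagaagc

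Cxcl2 and Cxcl3 each carried the NF-kappa B letters, from 97 and 73 bases before the start, and the match on the other strand overlaps it. The Ifit1 window held the interferon element at 104 and 85 bases before the start, both on the minus strand. In Bub1 there were CCAAT boxes at 68 and 42 bases, in Chil3 a CCAAT box at 223 and a CHR at 36, and in Chil4 a CHR at 65. None of the 4 motifs was found in the Il1b window. A match is a description of letters and not a site in use.

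The depth of the libraries is not known from FPKM, and values summed to between 415715 and 430822 in the 6 NC samples. Mitochondrially encoded genes took 6.42% to 7.00% of the sum in NC-1 to NC-4, and 7.59% and 7.82% in NC-5 and NC-6. The 50 most abundant genes took 28.6% to 29.3% against 33.1% and 33.4%. All 13 macrophage markers were present, with a summed level of 16382 to 19048 FPKM in NC-1 to NC-4 against 13827 and 14213 FPKM. The Y-linked gene Ddx3y was present in both sets, at 17.7, 18.5, 18.1 and 17.2 FPKM, then 15.2 and 15.4 FPKM. Over the 5 sex-linked and strain-linked genes compared, differences on the log2 scale ran from -0.93 to 0.21. Of these, 1 lay fully above and 1 fully below in NC-1 to NC-4, and 0 reached 2-fold without overlap. Among COM samples, COM-6 stood apart with 11.6% mitochondrial share, and COM+Met-1 stood apart for several genes given below. Some of the main values they touch are therefore also given without them.

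Over the genes compared, Pearson correlations of log2 values were 0.984 to 0.995 within NC-1 to NC-4 and 0.993 between NC-5 and NC-6, while those across the sets were 0.936 to 0.959. The split covered 688 genes (6.30%), of which 527 (4.82%) were higher in NC-1 to NC-4 and 161 (1.47%) were lower. Differences of at least 4-fold were found for 113 genes on the high side and 16 on the low side, and of at least 8-fold for 22 and 3. The median difference over all genes compared was -0.03 on the scale of FPKM, with 26.4% of genes fully above and 29.7% fully below. In bulk RNA, a different share of cells of one kind and a different amount of RNA per cell cannot be told apart. By comparison, 48 genes differed 2-fold between NC-5 and NC-6, and 179 genes had a 2-fold range inside NC-1 to NC-4. At the edge of the 2-fold limit, Acaa2 (difference -1.002) was just inside and Mybl2 (-0.9997) just outside.

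**Figure D1:**
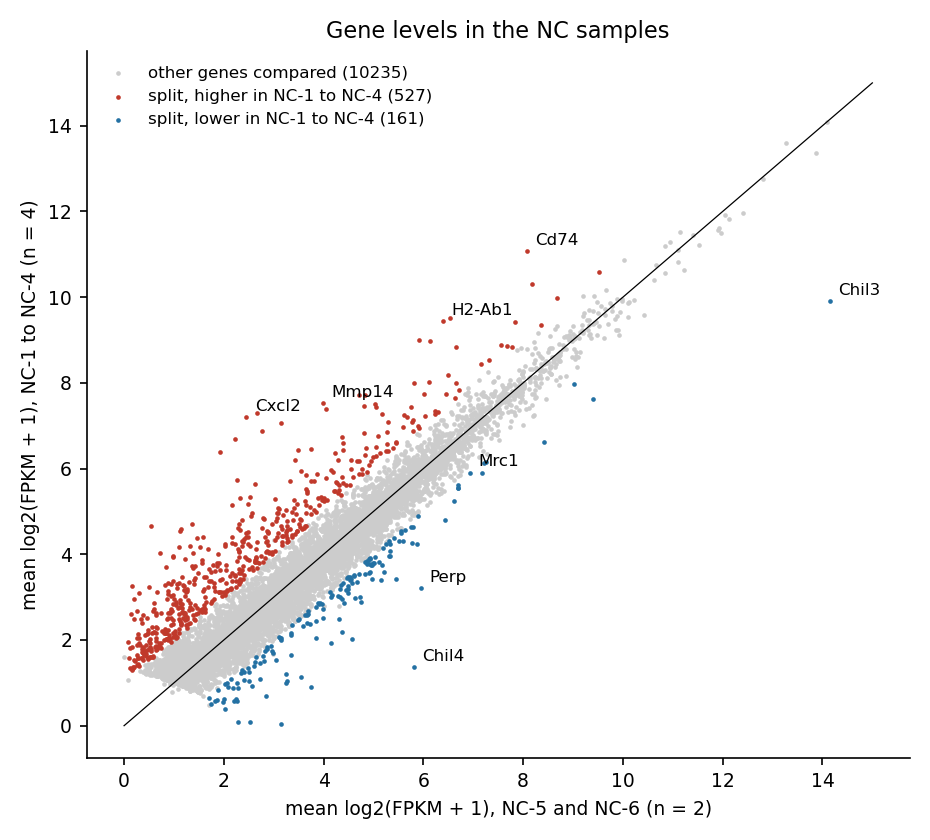
Each point is one of 10923 genes, with its mean log2(FPKM + 1) over NC-5 and NC-6 on the x axis and over NC-1 to NC-4 on the y axis. Red points are the 527 split genes higher in NC-1 to NC-4 and blue points the 161 lower ones. The line marks equal levels, most genes lie along it, and Chil3 is the abundant gene far below it.

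The 4 samples of the larger set did not lie at equal distance from the other 2. Among the 527 genes higher in NC-1 to NC-4, NC-4 was the sample nearest to NC-5 and NC-6 in 301 and NC-2 the farthest in 310. NC-6 lay beyond NC-5 in 404 of them. For the 161 lower genes, NC-4 was again nearest in 109.

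Chemokine ligands had the highest median difference of the gene lists. For the split counts of this and later lists, the shares over all genes were 4.82% higher and 1.47% lower. Cxcl2, a neutrophil attractant, had 155, 308, 142 and 67.5 FPKM in NC-1 to NC-4 and 6.86 and 2.82 FPKM in NC-5 and NC-6, a difference of 4.75 on the log2 scale. Its close relatives Cxcl3 (178, 333, 143 and 68.7 FPKM, then 7.68 and 3.57 FPKM, difference 4.63) and Cxcl1 (24.6, 46.5, 25.01 and 12.2 FPKM, then 0.842 and 0.141 FPKM, difference 4.13) were also highest in NC-2 and lowest in NC-6. All 3 genes lie in one cluster on chromosome 5 and are alike in sequence, so the way the authors assigned reads could share signal between them. Of 18 chemokine ligands compared, 15 were split and higher in NC-1 to NC-4, among them Cxcl10 (difference 3.06), an interferon-inducible attractant of T cells, and Ccl2 (1.95), the main monocyte attractant. Ccl22 had 38.1, 59.3, 32.4 and 31.2 FPKM, then 4.32 and 3.67 FPKM. Only Ccl6 (-0.48) and Cx3cl1 (-0.68) were lower, and the median of the list was 2.55. The summed level of all 25 ligands in the list did not follow the median. It was 3578 to 4790 FPKM in NC-1 to NC-4, and 4016 and 4456 FPKM in NC-5 and NC-6.

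Inflammatory cytokines followed the same samples. Il1b, which encodes interleukin-1 beta, had 120.0, 209, 119 and 60.04 FPKM in NC-1 to NC-4 and 8.04 and 4.18 FPKM in NC-5 and NC-6 (difference 4.09). Tnf was at 183, 305, 172 and 99.1 FPKM, then 31.6 and 23.5 FPKM (difference 2.65), and Il6 was at 4.76, 8.24, 4.78 and 3.43 FPKM, then 0.204 and 0 FPKM (difference 2.47). Neither range of Tnf or Il6 reached the other, and Il6 was close to nothing in NC-5 and NC-6. Il1a (2.94) and Csf3 (2.81), the granulocyte growth factor, were also split. Of 18 cytokines compared, 9 were split and higher in NC-1 to NC-4 and 0 lower, with a median of 1.09. Those with small differences included Il18 (0.49), Tgfb1 (0.14) and Vegfa (-0.34).

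Receptors upstream of these genes had smaller differences. Of 23 Toll-like receptors and adaptors, 6 were split, all higher in NC-1 to NC-4, and the median was 0.32. Cd14, the co-receptor for lipopolysaccharide, was at 85.2, 116, 84.6 and 62.2 FPKM, then 19.7 and 20.05 FPKM (difference 2.04). The lipopeptide receptor genes Tlr1 (1.44) and Tlr2 (1.02) were split too, whereas the lipopolysaccharide receptor Tlr4 (-0.19) overlapped between the sets and Tlr3 (-0.33), the receptor for double-stranded RNA, was lower in NC-1 to NC-4. Adaptor genes had small differences, with Myd88 at 0.39 and Ticam1 at 0.26.

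Inside the NF-kappa B group, targets and feedback genes had the largest differences. The list had 29 members, 12 of them split and higher in NC-1 to NC-4, with a median of 0.85. Ptgs2, the inducible prostaglandin synthase, was at 15.8, 28.8, 13.4 and 8.64 FPKM, then 1.09 and 0.311 FPKM (difference 3.29), and Traf1, a signalling adaptor, at 16.4, 21.9, 13.1 and 9.32 FPKM, then 1.27 and 0.696 FPKM. Nfkbiz was at 18.1, 23.2, 16.3 and 10.5 FPKM, then 2.48 and 1.96 FPKM and codes for a nuclear I kappa B protein. The feedback genes Tnfaip3 (1.88) and Nfkbia (1.10) were split, while the subunit genes Rela (0.70) and Nfkb1 (0.54) did not overlap but missed 2-fold. The kinase genes Chuk (0.00) and Ikbkb (0.20) were near equal. Immediate early genes, which respond within minutes to many signals, had 11 split members on the high side and 1 on the low side of 26, with Nr4a3 (2.11) and the phosphatase gene Dusp1 (1.74) high, Fos (-0.15) overlapping and Klf4 (-1.37) low.

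Markers of classical activation were mostly on the high side. Serpinb2, an inhibitor of plasminogen activators, was at 112, 142, 101 and 69.2 FPKM, then 5.33 and 2.4 FPKM (difference 4.48). Acod1, whose enzyme makes itaconate, had a difference of 3.34, and Nos2, the inducible nitric oxide synthase, was low in all NC samples at 2.54, 3.55, 2.34 and 1.95 FPKM, then 0.21 and 0.0442 FPKM. Of 29 such genes 20 were split and higher, with a median of 1.70, and 1 was split and lower. That one was Marco (-1.82), a scavenger receptor for bacteria and particles. Outside the lists, the largest differences were those of H2-M2, a non-classical MHC class I gene (85.9, 135, 85.5 and 47.1 FPKM, then 4.13 and 1.77 FPKM), Ly6i (163, 178, 134 and 79.6 FPKM, then 9.53 and 6.53 FPKM), the chemerin receptor gene Cmklr1 (58.1, 62.6, 52.9 and 38.8 FPKM, then 4.35 and 3.28 FPKM) and the peptide hormone gene Cck (27.1, 21.7, 23.7 and 20.7 FPKM, then 1.95 and 0.637 FPKM). Reads of Ly6i and H2-M2 can be shared with near copies of these genes.

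Every interferon response gene compared was higher in NC-1 to NC-4. Of 45 members 28 were split, 43 did not overlap between the sets (26.4% of all genes lay fully above), and the median difference was 1.19. Ifit1, which binds foreign RNA, was at 10.1, 13.1, 6.83 and 6.25 FPKM, then 0.649 and 0.909 FPKM (difference 2.45). Rtp4 was at 9.57, 16.01, 8.27 and 6.2 FPKM, then 1.02 and 0.931 FPKM, and Ifi204, a DNA sensor of a family with near copies, at 28.6, 29.9, 24.5 and 25.1 FPKM, then 4.18 and 4.16 FPKM. Among transcription factor genes of the pathway, the difference was 1.40 for Irf7, 1.04 for Irf9 and 0.66 for Stat2, each smaller than that of Ifit1. Levels in NC were low in both sets beside those of the COM samples, in which Ifit1 ran from 80.4 to 572 FPKM (median 240.1).

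MHC class II genes had high levels in NC-1 to NC-4 with little spread. Cd74, the invariant chain, was at 2096, 2229.9, 2016 and 2339 FPKM in NC-1 to NC-4 and 323 and 222 FPKM in NC-5 and NC-6, a difference of 3.01. H2-Ab1 was at 652, 734, 651 and 732 FPKM, then 101 and 67.9 FPKM and H2-Eb1 at 479.7, 554, 477 and 536 FPKM, then 71.5 and 49.01 FPKM, with differences of 3.04 and 3.09. In these 3 genes NC-4 stood with the other 3 samples of its set, unlike in the chemokines. Ciita, the regulator of the group, differed by 2.31, and the peptide loading genes H2-DMa and H2-DMb1 by 1.49 and 1.503. Of 12 members 11 were split and higher, and the protease gene Ctss (0.34) was the exception.

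Complement genes were split in 10 of 15 cases, all higher in NC-1 to NC-4. C1qb, a chain of the first component, was at 16.7, 16.3, 20.6 and 15.7 FPKM, then 2 and 1.11 FPKM, and C1qa and C1qc differed by 2.27 and 2.21. In the 3 C1q genes NC-3 was the highest sample. Matrix and remodelling genes were split in 12 of 20 cases with a median of 1.38. Mmp14, a membrane-bound protease, was at 208, 222, 187 and 132 FPKM, then 19.7 and 11.2 FPKM (difference 3.54), and the collagenase gene Mmp13 at 24.8, 30.2, 23.2 and 17.6 FPKM, then 4.3 and 3.49 FPKM. Dcstamp, needed for the fusion of macrophages into giant cells, was at 34.5, 41.3, 33.2 and 32.7 FPKM, then 5.09 and 4.15 FPKM.

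**Figure D2:**
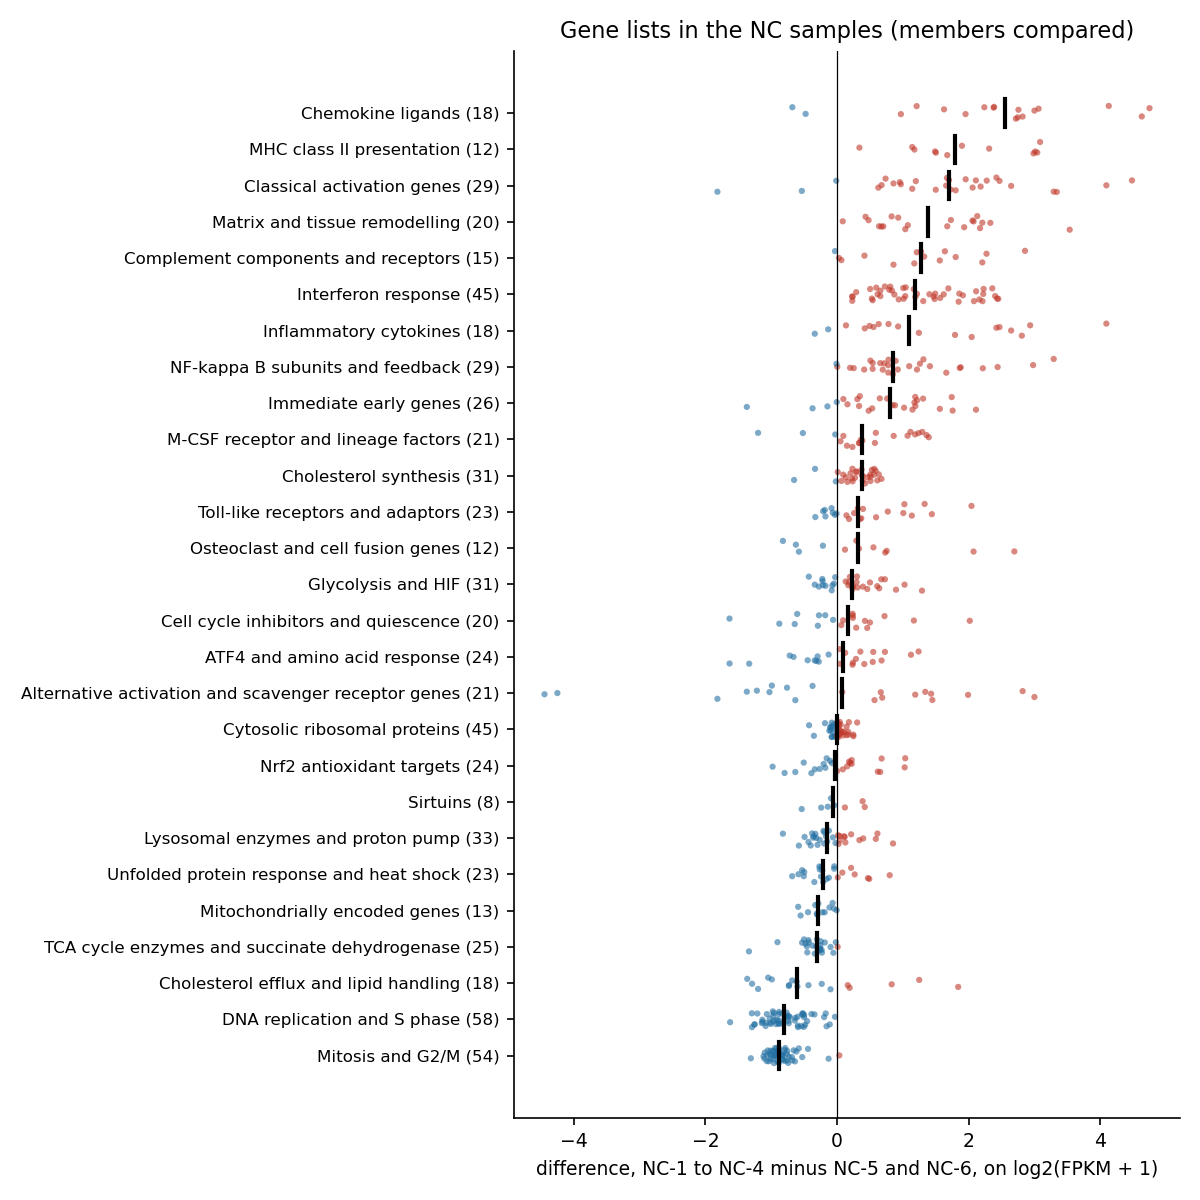
Each row is a gene list with the number of members compared, and each point is a member placed by its difference on the log2 scale (red higher, blue lower in NC-1 to NC-4), with the median as a black bar. Chemokine ligands (median 2.55) and MHC class II genes (1.79) lie farthest to the right, and mitosis (-0.89) and DNA replication (-0.81) farthest to the left.

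Genes of alternative activation did not move as a group. Their median was 0.08 over 21 members, with 7 split on the high side and 6 on the low side. The low side held the largest differences. Chil3, which encodes the chitinase-like protein Ym1, was at 972, 1097, 836 and 928 FPKM in NC-1 to NC-4 and 18218 and 18157 FPKM in NC-5 and NC-6 (difference -4.25). This single gene took 4.24% and 4.21% of the FPKM sum in NC-5 and NC-6 against 0.201% to 0.259% in NC-1 to NC-4. Its near copy Chil4 was at 0.474, 2.26, 2.02 and 1.99 FPKM, then 183 and 16.01 FPKM, so that NC-5 and NC-6 differed from each other as well, and reads of Chil3 and Chil4 may be shared. Mrc1, the mannose receptor, was at 54.3, 53.8, 58.5 and 70.5 FPKM, then 121 and 122 FPKM (difference -1.03), and the lipid-sensing factor gene Pparg differed by -1.22. High instead were Ccl22 and Ccl17 (2.82), which attract regulatory and helper T cells, and the lectin gene Mgl2 (1.99), while Arg1 overlapped at 2.78, 3.08, 2.18 and 1.16 FPKM, then 1.56 and 0.598 FPKM.

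The other leading genes on the low side had little signal in the crystal groups. Perp, a target of p53 found in cell junctions, was at 7.97, 7.72, 7.96 and 9.6 FPKM in NC-1 to NC-4 and 60.3 and 62.2 FPKM in NC-5 and NC-6, and Bok, of the BCL-2 family, at 3.41, 2.59, 3.09 and 3.17 FPKM, then 22.04 and 23.3 FPKM. Fam189a2 was at 0.667, 0.728, 0.875 and 1.24 FPKM, then 11.4 and 13.5 FPKM. Perp was thus present in both sets, and Fam189a2 was near 1 FPKM in NC-1 to NC-4. Mlph, which links melanosomes to motors (-2.40), the peroxisomal thiolase gene Acaa1b (-2.25), the wax synthase gene Awat1 (-2.24), the gastric lipase gene Lipf (-2.21) and the casein gene Csn2 (-2.44) belonged with them. All 8 stayed below 1 FPKM in every COM and COM+Met sample, and for Lipf and Csn2 some NC samples were listed at 0. In NC-1 to NC-4, Fam189a2, Csn2 and Lipf averaged 0.878, 0.0611 and 0.0566 FPKM. They thus passed the limit of 1 FPKM only through NC-5 and NC-6, the set where they are high.

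Proliferation genes were lower in NC-1 to NC-4 as a group and by a like amount. Of 54 mitosis and G2/M genes 53 were lower and did not overlap between the sets (29.7% of all genes lay fully below), but 12 reached 2-fold, and the median difference was -0.89. Mki67, the usual marker of cycling cells, was at 41.6, 45.96, 37.03 and 50.5 FPKM in NC-1 to NC-4 and 84.9 and 84.5 FPKM in NC-5 and NC-6 (difference -0.95), just short of 2-fold. Bub1, of the spindle checkpoint, was at 6.98, 7.75, 5.81 and 7.83 FPKM, then 19.7 and 18.2 FPKM (difference -1.31). Top2a, which untangles chromosomes, differed by -0.88, and the cyclin gene Ccna2 by -1.10. In Mki67, Top2a, Bub1 and Ccna2, NC-4 was the sample of its set nearest to NC-5 and NC-6.

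DNA replication genes followed. All 58 compared were lower in NC-1 to NC-4, with a median of -0.81. Of these, 52 did not overlap (29.7% of all genes lay fully below) and 15 were split (1.47% of all genes were split and lower). Tk1, thymidine kinase, was at 11.2, 11.7, 9.17 and 12.4 FPKM, then 35.9 and 36.4 FPKM (difference -1.63). The helicase gene Mcm2 was at 5.94, 6.07, 7.05 and 10.3 FPKM, then 18.3 and 18.7 FPKM, and Mcm6 (-1.30), the ligase gene Lig1 (-1.29) and the ribonucleotide reductase gene Rrm2 (-1.26) were split as well. The clamp Pcna (-0.59) and the licensing factor Cdc6 (-0.72) missed 2-fold. Inhibitors of the cycle had no common direction. Cdkn1a, which encodes p21, was at 94.5, 112, 90.5 and 102 FPKM, then 71.7 and 76.2 FPKM, Gadd45a differed by 2.02 and Gadd45g by -1.63.

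Most metabolic groups had smaller medians. TCA cycle genes were lower in 24 of 25 cases with a median of -0.31, and Suclg2 (-1.34) alone was split. The succinate dehydrogenase gene Sdha was at 75.6, 71.4, 73.7 and 73.8 FPKM, then 91.5 and 92.4 FPKM (difference -0.32). Sirt1, the deacetylase that the study follows, overlapped at 6.84, 6.4, 7.13 and 6.85 FPKM in NC-1 to NC-4 and 6.83 and 5.59 FPKM in NC-5 and NC-6, and 0 of 8 genes of the sirtuin list were split. Of 24 genes of the ATF4 and amino acid response 2 were split and higher in NC-1 to NC-4 and 2 lower, with a median of 0.08. That is 8.33% each, beside 4.82% and 1.47% of all genes. The lower ones were the serine synthesis genes Phgdh, at 24.6, 28.2, 24.3 and 31.1 FPKM, then 88.6 and 82.8 FPKM, and Psat1, at 10.3, 11.7, 9.18 and 13.4 FPKM, then 30.02 and 28.7 FPKM. Cholesterol synthesis genes were slightly higher in NC-1 to NC-4 in 28 of 31 cases (median 0.37, 0 split), and glycolysis genes had a median of 0.23 with Hif1a overlapping (0.24). Of 18 genes of cholesterol efflux and lipid handling 13 were lower in NC-1 to NC-4, with a median of -0.61, and 4 were split lower and 2 higher. Its efflux pump genes went opposite ways, with Abca1 at 11.3, 12.04, 11.5 and 9.15 FPKM, then 2.7 and 2 FPKM and Abcg1 at 33.9, 31.2, 34.6 and 51.1 FPKM, then 96.4 and 97.3 FPKM.

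Apart from the immediate early genes (median 0.80) and the ATF4 response (0.08) described above, lists of housekeeping and stress genes had medians from -0.28 to 0.00. The 45 cytosolic ribosomal protein genes had a median of 0.00 and 0 split members, the 33 lysosomal genes a median of -0.15 and 0 split, and the 23 genes of the unfolded protein response a median of -0.21 and 0 split. For ribosomal proteins the sign turned under quantile normalisation (-0.08). The 24 Nrf2 targets had a median of -0.04, which became positive after rescaling to equal sums. Of them 2 (8.33%, beside 4.82% of all genes), Nqo1 (1.04) and Nfe2l2 (1.03), were split and higher in NC-1 to NC-4. The 13 mitochondrially encoded genes were all lower in NC-1 to NC-4, with a median of -0.28 and 0 split.

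**Figure D3:**
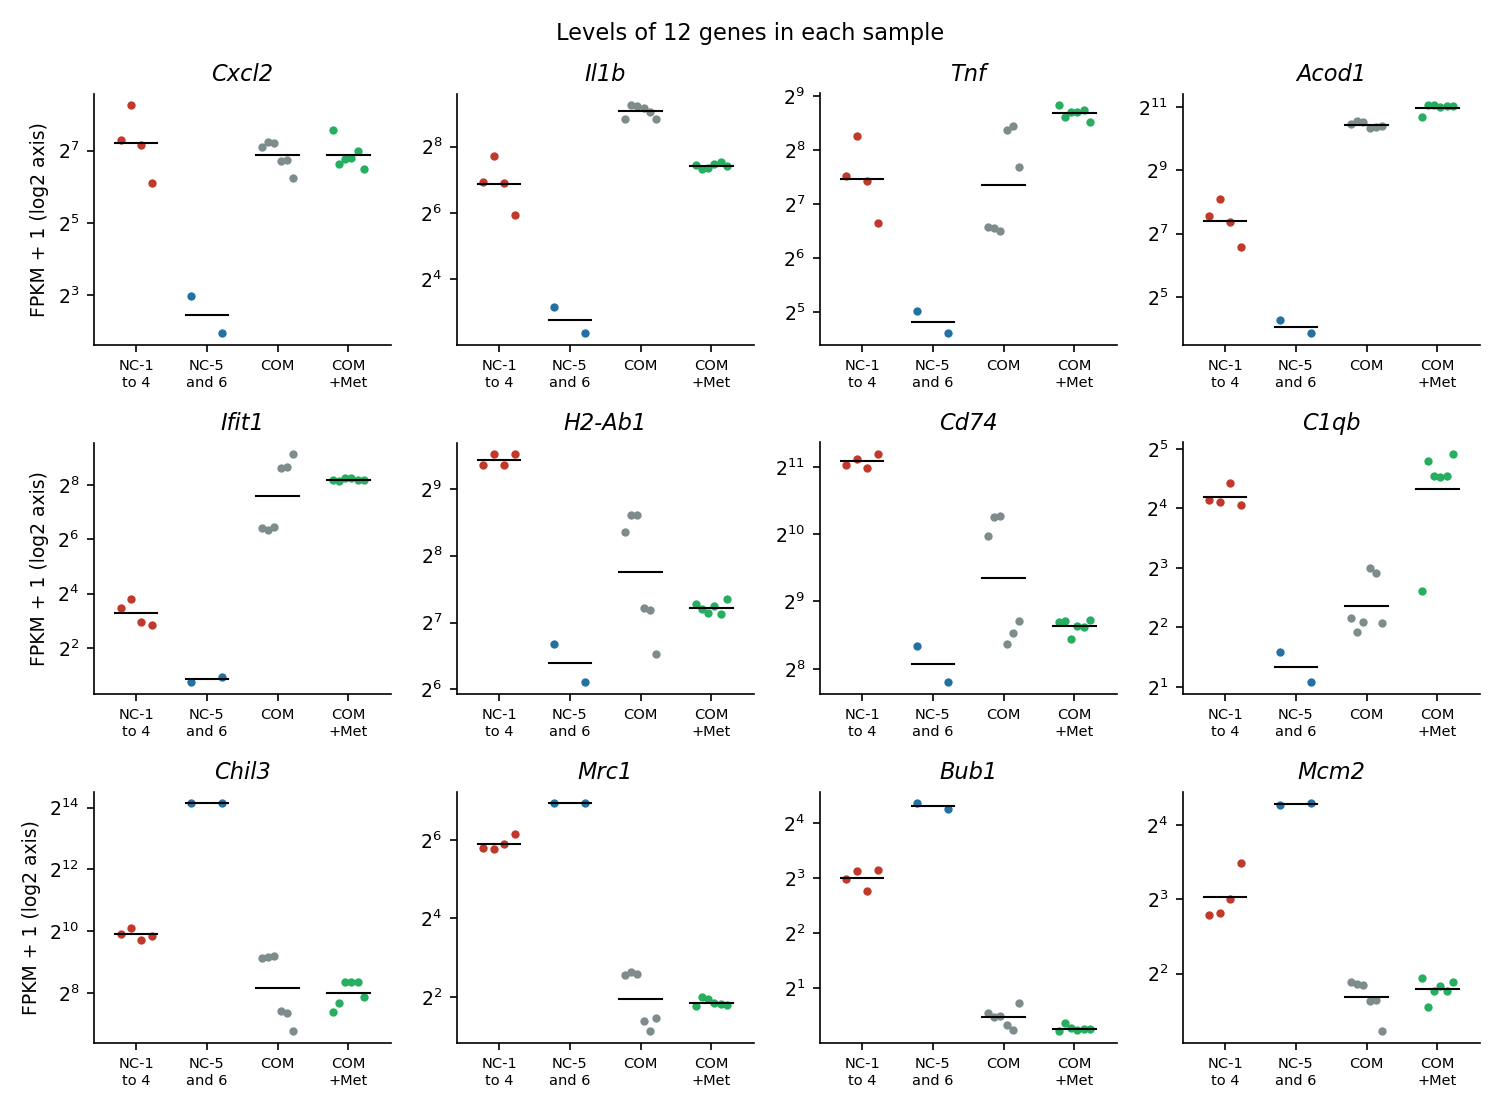
Points are single samples of 12 genes on a log2 axis of FPKM + 1, and bars are the means of the log values, for NC-1 to NC-4 (red), NC-5 and NC-6 (blue), COM (grey, n = 6) and COM+Met (green, n = 6). In all 12 genes the red and blue points do not overlap, and in H2-Ab1 and Cd74 all COM points lie below the red ones.

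Genes of the macrophage lineage were split in part. Csf1r, the M-CSF receptor, was at 353, 328, 356 and 354 FPKM in NC-1 to NC-4 and 146 and 136 FPKM in NC-5 and NC-6 (difference 1.30), while Spi1 (0.10), which encodes PU.1, and Cebpa (-0.03) hardly differed. Of the macrophage markers, Adgre1 (F4/80, 0.25) and Lyz2 (0.32) had small differences, Aif1 (1.85) was higher, and the efferocytosis receptor Mertk (-1.18) was lower in NC-1 to NC-4. Monocyte markers went both ways, with Ly6c2 at 237, 244, 233 and 145 FPKM, then 28.1 and 22.4 FPKM and Cx3cr1 at 2.92, 2.03, 3.05 and 2.91 FPKM, then 0.267 and 0.123 FPKM on the high side and Chil3 on the low side.

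Markers of other cells moved with the split at various levels, and their part in it was not tested. Over all genes 4.82% were split and higher in NC-1 to NC-4. Dendritic cell markers summed to 173 to 204 FPKM in NC-1 to NC-4 against 58.9 and 50.5 FPKM, mostly from Itgax (difference 1.64), which macrophages also express. All 5 that were compared were higher in NC-1 to NC-4 and 4 were split, among them Ccr7 at 13.4, 20.3, 12.3 and 10.8 FPKM, then 2 and 0.824 FPKM (difference 2.66) and Fscn1 (2.29), while Flt3 and Cd209a stayed below 1 FPKM in all NC samples. Neutrophil markers, 5 of 11 split and higher, summed to 909.6 to 1047 FPKM against 548 and 569.95 FPKM, with Mmp8 at 470.4, 420.1, 444 and 482 FPKM, then 102 and 97.8 FPKM, S100a8 slightly lower in NC-1 to NC-4 (-0.41), and Ly6g and Mpo near 0. Fibroblast markers, 2 of 10 split and higher, summed to 85.2 to 113 FPKM against 79.2 FPKM in NC-5 and 35.2 FPKM in NC-6, with Dcn at 8.83, 10.6, 7.5 and 7 FPKM, then 0.659 and 0.213 FPKM. Tubular markers summed to 10.99 to 15.3 FPKM against 16.5 and 18.4 FPKM, most of it Cdh1, and 6 of 18, among them Umod and Miox, were listed at 0 in every NC sample. Lymphocyte markers summed to at most 3.54 FPKM, with Nkg7 at 0. Endothelial and erythroid markers stayed below 4 FPKM in sum. Mast cell markers summed to 12.3 to 19.8 FPKM against 22.4 and 22.2 FPKM, with Cpa3 at 5.67, 9.23, 6.77 and 10.5 FPKM, then 15.2 and 16.2 FPKM (difference -0.92) and with Gata2 (0.02) and Mcpt8 (0.17) overlapping.

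Whether the same genes varied where no NC sample was involved was asked in COM+Met against COM. Each comparison of 12 samples was fitted with limma on log2(FPKM + 1), and a gene was called at a Benjamini-Hochberg adjusted p under 0.05 and a change of at least 2-fold. Calls were made for 230 of 10364 genes (2.22%), with 63 up (0.608%) and 167 down (1.61%) in COM+Met. Of the 527 genes higher in NC-1 to NC-4, 463 could be tested, and 16 (3.46%) rose and 43 (9.29%) fell with Met. Of the 161 lower genes, 84 could be tested, and 3 (3.57%) rose and 6 (7.14%) fell. Shares were thus above the background in both directions for both kinds of gene, but those of the lower genes rest on 3 and 6 genes. Gadd45g, 1 of the 3 that rose, was no longer called in 10 of 12 runs that left out 1 sample. The 68 shared genes were 29.6% of those called with Met and 9.88% of the split genes, and 55 to 89 were found when each sample was left out in turn.

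Inflammatory genes were called in both directions. Of 18 cytokines 3 fell and 2 rose, of 29 classical activation genes 5 fell and 2 rose, and of 21 chemokines 2 fell and 0 rose. Il1b ran from 455 to 609 FPKM (median 548) in COM and from 158 to 184 FPKM (median 171) in COM+Met, without overlap, a log2 fold change of -1.64 ± 0.10 (SE; limma, Benjamini-Hochberg adjusted p = 5.61e-06). Serpinb2 ran from 47.99 to 143 FPKM (median 92.5) in COM and from 18.6 to 33.3 FPKM (median 22.5) in COM+Met. Its log2 fold change was -1.86 ± 0.29 (limma adjusted p = 0.00159). Its values were higher in COM-1 to COM-3 (127 to 143 FPKM) than in COM-4 to COM-6 (47.99 to 57.6 FPKM), so no COM sample lay near the median. Cxcl3 was divided the same way (1402 to 1654 and 313 to 424 FPKM), Mmp13 the opposite way, and Il1b was not divided. The monocyte marker Ly6c2 (-2.06 ± 0.23), the costimulator gene Tnfrsf9 (-2.18 ± 0.23, and -2.33 without COM+Met-1), Mmp13 (-1.56 ± 0.30) and the WAP-domain gene Wfdc21 (-2.49 ± 0.32) fell in all runs that left out 1 sample. By contrast, Cxcl3 (limma adjusted p = 0.0302) and the protease inhibitor gene Slpi (limma adjusted p = 0.0312) were no longer called in 8 of 12 such runs. Of the other genes, Cxcl2 (-0.01 ± 0.20) and Mmp14 (0.05 ± 0.20) were not called. Car4, a carbonic anhydrase gene and one of the 6 low-side genes that fell, ran from 5.46 to 15.7 FPKM (median 10.5) in COM and from 0.248 to 7.31 FPKM (median 0.48) in COM+Met, a log2 fold change of -2.47 ± 0.44, or -2.89 without COM+Met-1.

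Among the split genes that rose with Met were Apoe and the C1q genes. Apoe, which carries cholesterol, was at 76.3, 58.6, 109 and 74.9 FPKM in NC-1 to NC-4 and 34.2 and 30.2 FPKM in NC-5 and NC-6, then at 15.1 to 119 FPKM (median 26.4) in COM and 78.03 to 558 FPKM (median 397) in COM+Met. Its log2 fold change with Met was 3.20 ± 0.59 (limma adjusted p = 0.00399) and 3.61 without COM+Met-1. C1qb ran from 2.77 to 6.98 FPKM (median 3.37) in COM and from 5.08 to 29.2 FPKM (median 22.4) in COM+Met, a log2 fold change of 1.96 ± 0.36 (limma adjusted p = 0.00384) and 2.31 without COM+Met-1. C1qa and C1qc rose by 1.82 ± 0.34 and 1.75 ± 0.31, and by 2.14 and 2.05 without COM+Met-1. Tnf rose by 1.33 ± 0.34 (limma adjusted p = 0.0226), opposite to Il1b, a call that was lost without COM-2. As groups, 6 of 18 matrix genes fell and 1 rose, 3 of 15 complement genes rose and 1 fell, 2 of 18 lipid handling genes rose and 1 fell, and 0 of 50 interferon response, 0 of 29 NF-kappa B, 0 of 16 mitosis and 0 of 11 MHC class II genes were called. Over all genes 0.608% rose and 1.61% fell, 2.22% in either direction, so 0 calls in lists of this size lie near the share of all genes. They do not show that these groups were unchanged with Met. Fibroblast markers (4 of 7 fell) and neutrophil markers (4 of 6 fell) moved with this comparison too, and their part was not tested.

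**Figure D4:**
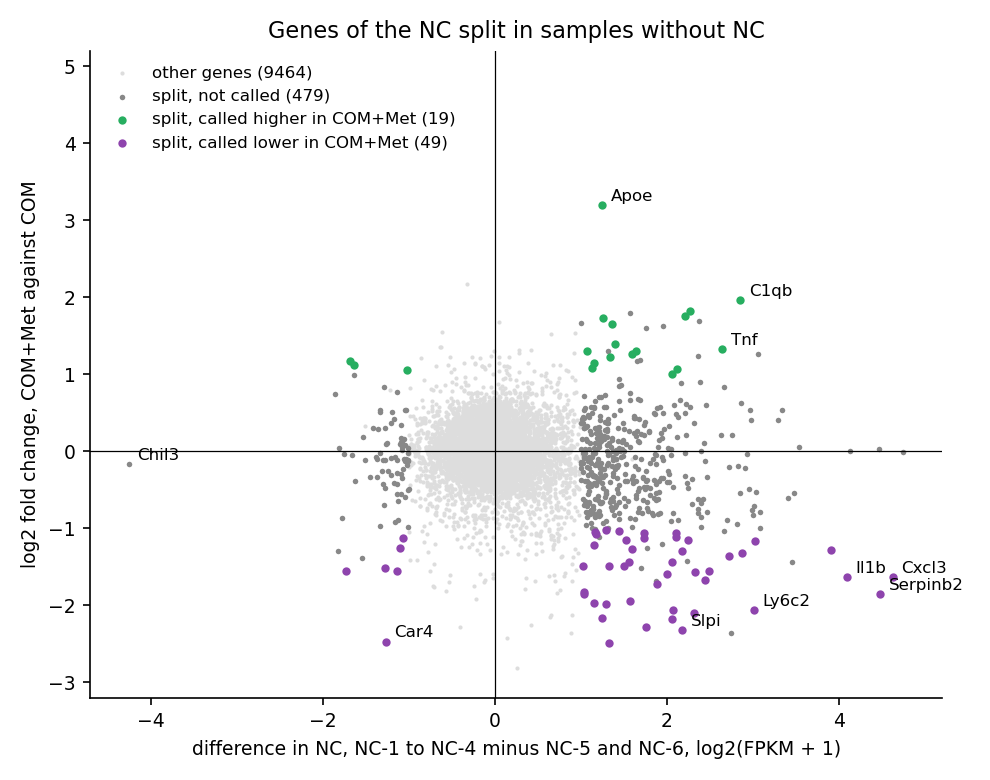
Each point is a gene, placed by its difference between the NC sets (x axis, log2 scale) and its log2 fold change in COM+Met against COM (y axis), which uses no NC sample. Coloured points are the split genes called with Met, 19 higher and 49 lower, and they lie on both sides of the zero line of the x axis.

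The number of genes called in COM against NC differed with the controls used. The fits also differed in the number of controls, the genes kept and the spread within controls, and the part of each was not tested. With all 6 NC samples 1926 of 10900 genes were called (17.7%), 653 higher (5.99%) and 1273 lower (11.7%). Without COM-6 this count was 1727. With NC-1 to NC-4 as the only controls 1699 of 10829 were called (15.7%), 545 higher (5.03%) and 1154 lower (10.7%). Against NC-5 and NC-6 alone 2122 of 10758 were called (19.7%), 825 higher (7.67%) and 1297 lower (12.1%). These fits share the COM samples, and the gap between their fold changes is by construction the difference between the NC sets, so it was not tested again. The median over all genes was -0.27, -0.26 and -0.27, and near 0 with median-of-ratios size factors, under which the split of calls was 864 higher and 821 lower for all NC samples, 731 and 736 for NC-1 to NC-4, and 1030 and 873 for NC-5 and NC-6. Without COM-6 the counts were 1556 for NC-1 to NC-4 and 2124 for NC-5 and NC-6.

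Genes higher in NC-1 to NC-4 were picked by the gap between the control sets, so the shift in their counts follows from that choice. Of 519 such genes tested against NC-1 to NC-4, 141 rose and 114 fell with COM, while of 482 tested against NC-5 and NC-6, 301 rose and 12 fell. The p-values against either set rest on the same NC values by which the sets were chosen, and do not test the gap between them. Cxcl2 ran from 75.1 to 150.5 FPKM (median 121) in COM, inside the range of NC-1 to NC-4. Its log2 fold change was -0.33 ± 0.35 against NC-1 to NC-4 (limma adjusted p = 0.474) and 4.42 ± 0.33 against NC-5 and NC-6 (limma adjusted p = 1.99e-05). With all 6 controls it was 1.26 ± 0.94 and not called (limma adjusted p = 0.271). Tnf was alike, at -0.11 ± 0.47 and 2.54 ± 0.59. Il1b rose against either set, by 2.19 ± 0.28 and 6.28 ± 0.24, and so did Acod1, by 3.05 ± 0.24 and 6.39 ± 0.17.

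The MHC class II genes had medians of opposite sign with the different controls. Against NC-1 to NC-4, 7 of 11 fell and 0 rose, with a median of -1.50. Against NC-5 and NC-6, 0 fell and 1 of 11 rose, a share near the 7.67% of all genes called higher, with a median of 1.06, and 5 of 11 rose with size factors. Without COM-6, 7 of 12 fell against NC-1 to NC-4 and 2 of 11 rose against NC-5 and NC-6, H2-Ab1 among them with a log2 fold change of 1.60. H2-Ab1 ran from 91.4 to 389 FPKM (median 236) in COM, all below NC-1 to NC-4, with the lowest sample inside the range of NC-5 and NC-6. Its log2 fold change was -1.69 ± 0.40 against NC-1 to NC-4 (limma adjusted p = 0.0066) and 1.36 ± 0.58 against NC-5 and NC-6 (limma adjusted p = 0.101), not called. C1qb fell against NC-1 to NC-4 (-1.83 ± 0.23) and rose against NC-5 and NC-6 (1.03 ± 0.33).

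Medians of some other groups had opposite signs too. Over all genes 5.03% rose and 10.7% fell against NC-1 to NC-4, and 7.67% rose and 12.1% fell against NC-5 and NC-6. Complement genes had a median of -0.19 against NC-1 to NC-4 (2 of 16 rose and 4 fell), which was 0.11 with size factors, and of 0.85 against NC-5 and NC-6 (6 of 14 rose and 0 fell). Matrix genes had a median of -0.42 (3 of 20 rose and 7 fell), then 0.74 (9 of 19 rose and 3 fell). Immediate early genes had a median of -0.44 (2 of 26 rose and 8 fell), then 0.25 (7 of 24 rose and 5 fell), and the M-CSF receptor and lineage genes -0.20, which was 0.10 with size factors, then 0.29.

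The chemokine, NF-kappa B, interferon response, mitosis and DNA replication groups had medians of the same sign with either set. In the NF-kappa B group 2 of 29 rose against NC-1 to NC-4, a share near the 5.03% of all genes called higher. Against NC-5 and NC-6 18 of 29 rose, beside 7.67% of all genes. Chemokine medians were 0.28 and 2.65, with 5 and 9 of 21 called higher and 3 and 1 called lower. Interferon response genes rose in 48 and 49 of 50 cases and mitosis genes fell in 52 of 54 cases with either set, with medians of 3.43 and 4.59 and of -2.50 and -3.47. DNA replication genes fell in 25 of 55 and 48 of 57 cases, which became 17 and 43 with size factors. Mrc1 fell against both, with log2 fold changes of -3.95 ± 0.32 and -4.98 ± 0.45. Nos2, with 4.42 to 259.9 FPKM (median 87.7) in COM, was called against neither set, at 3.29 ± 1.25 and 4.94 ± 1.77.

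**Figure D5:**
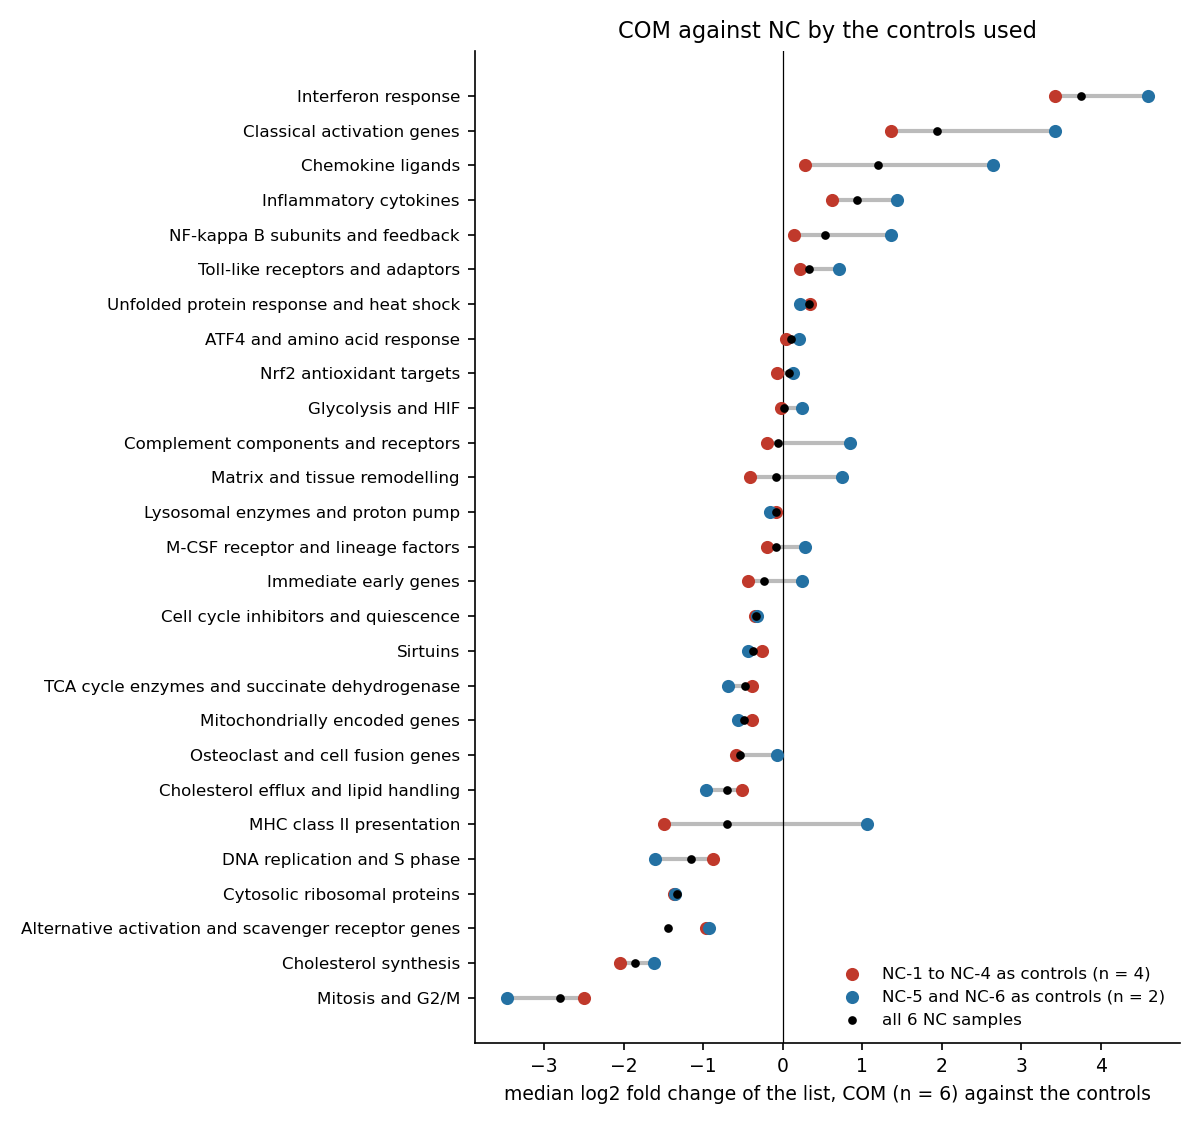
For each list, the median log2 fold change of COM (n = 6) is shown against NC-1 to NC-4 (red), NC-5 and NC-6 (blue) and all 6 NC samples (black). The grey bar joins the red and blue points, and it crosses 0 for MHC class II genes (-1.50 to 1.06), among others.

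Split genes also had a wide spread among the COM samples. Of 479 genes on the high side that averaged 1 FPKM or more in COM, 312 (65.1%) had a 2-fold range over the 6 samples, as had 51 of 89 (57.3%) on the low side, beside 36.1% of all genes compared. In COM+Met these shares were 7.14% and 5.41% beside 1.75%. A range can be set by 1 sample, and these shares were not computed without COM-6 or COM+Met-1. For H2-Ab1 and Cd74, COM-1 to COM-3 lay above COM-4 to COM-6, and for Ifit1 below them. Whole-transcriptome correlations of COM samples were 0.756 to 0.920 with NC-1 to NC-4 and 0.691 to 0.837 with NC-5 and NC-6, and those of COM+Met samples 0.838 to 0.869 and 0.780 to 0.789.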

How the data were processed

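RNA of 18 BMDM samples was sequenced from TruSeq libraries, and the authors deposited a table of FPKM values per gene and sample, with replicates kept apart. Bowtie 0.12.2, mm8 and mm9 are listed, without roles, in the processing notes of the submitters. For the quantifier and gene models, the sources used here give no name. All 18 sample columns were used and 0 were left out. Read counts could not be recovered, since the most common step between low values fitted at most 0.333% of genes below 0.5 FPKM, so no counting interval is given.

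Values were transformed to log2(FPKM + 1), and genes averaging 1 FPKM or more over the compared samples were kept. COM+Met against COM and COM against NC were each tested with limma 3.58.1 (lmFit, eBayes with trend) in R 4.3.3. P-values were adjusted by Benjamini-Hochberg across every tested gene, and calls needed an adjusted p under 0.05 and a 2-fold change. The procedure was tested on simulated data. Positions and start sites were taken for Ensembl identifiers from the GENCODE annotation of GRCm38, not from the builds named by the submitters, and promoters are those of RefSeq on GRCm38.p6. Python 3.11.15 with pandas 2.3.3 gave the counts, and matplotlib 3.10.9 the plots.

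The sets of NC samples, the 39 gene lists (825 of 841 genes in the table) and the tests were chosen with earlier results of these data known. Genes named were the 10 with the largest difference in each direction, the 3 with the largest difference in each list, the 5 most changed split genes in each direction in COM+Met against COM, and a set of genes of the study. Further list members are named as examples, chosen after their values were seen. For symbols with several rows, the row with the highest mean was used.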

Additional observations from a re-analysis of the deposited data

Results flagged for a closer look

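In 213 groups of 6 samples of the genes named, 20 held a sample far from the other 5 by Dixon's test, and chance alone gives about 1 in 20 groups. COM+Met-1 was that sample in 12 of them. It was low for Acod1 (1650 FPKM, others from 2078), C1qb (5.08 FPKM, others from 21.99), C1qa (1.31 FPKM, others from 6.48), C1qc (2.40 FPKM, others from 9.35), Apoe (78.0 FPKM, others from 360.5) and Slamf8 (27.99 FPKM, others from 43.1). It was high for Ly6i (572 FPKM, others up to 386), Cdkn1a (122 FPKM, others up to 93.2), Car4 (7.31 FPKM, others up to 0.658), Slpi (282 FPKM, others up to 143), Cyp1b1 (8.85 FPKM, others up to 4.09) and Tnfrsf9 (6.12 FPKM, others up to 3.11).

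COM-6 was low for Mmp14 (141 FPKM, others from 275) and Cck (6.88 FPKM, others from 34.5). Among NC samples, NC-6 was low for Col1a2 (6.28 FPKM, others from 14.99 to 23.9). The 213 groups do not cover every group of every gene named. Chil4 in NC is not among the flagged groups, though NC-5 had 183 FPKM and the other NC samples 0.474 to 16.01 FPKM. The remaining values lie below 1 FPKM, in groups whose other samples were lower still. They are Chil4 in COM+Met-5 (0.866 FPKM), Bok in COM-2 (0.506 FPKM), Csn2 in COM+Met-6 (0.276 FPKM), Lipf in COM-3 (0.153 FPKM) and Arg1 in COM+Met-4 (0.0438 FPKM).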

How the results depend on the processing

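The count of 688 split genes between NC-1 to NC-4 and NC-5 and NC-6 became 301 with a pseudocount of 5, 454 with a mean of at least 5 FPKM, 1756 with a 1.5-fold limit and 129 with a 4-fold limit, and 655 to 762 with each NC sample left out. With a pseudocount of 0.1, no filter, equal sums, size factors, quantile normalisation or removal of GC and length trends it was 676 to 986. COM+Met against COM gave 370 genes with a pseudocount of 0.1 and 90 with 5, and 182 to 300 with each sample left out. COM against NC gave 980 genes with a pseudocount of 5 (1727 to 2073 with each sample left out), and the 653 higher and 1273 lower calls became 864 and 821 with size factors and 801 and 895 with quantile normalisation. Of the split genes, 109, 25 and 38 in place of 68 were called in COM+Met against COM with pseudocounts of 0.1 and 5 and a mean of at least 5 FPKM, and 55 to 89 with each sample left out.

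In COM against NC, 111 of 3221 values of 126 named genes had the other sign. In 7 of these the gene was called in either fit, all with NC-5 and NC-6 as the only controls. C1qb was then 1.03, 1.09 without COM-6 and 1.23 with size factors, H2-Ab1 was 1.60 without COM-6 and 1.67 with size factors, and Cd74 (1.60) and Mmp8 (1.06) turned with size factors. The fits with size factors or without COM-6 for either set of controls were added after the data had been seen. In COM+Met against COM, 61 of 2116 values of 107 named genes lost and 23 gained the call, and 65 values, none of a called gene, had the other sign. Of 1557 differences between the NC sets over 130 genes, 213 moved by more than the spread of NC-1 to NC-4 and 6, of 3 genes that were not split, had the other sign.

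The replicate number as a block gave 202 calls for COM+Met against COM and 1920 for COM against NC. Samples of the same number did not deviate together (correlations -0.22 to 0.03), so the numbers were not taken as pairs. The depth is unknown, so how well values near 1 FPKM are measured is unknown too, and the labels give no batch by which the NC sets could be told apart.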
